A study of Xenopus tropicalis with 12 samples.

Results

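The mitochondrial uncoupling protein genes ucp1, ucp2 and ucp3 were described across 12 liver RNA-seq libraries of wild-type *Xenopus tropicalis*, a frog whose tadpole liver is remodelled under thyroid hormone. The 3 genes, of 26529 in the count table, were matched by symbol, and they were chosen with their levels in these libraries already known, so their levels are given as a description and no test of them is read. Each group had 3 libraries. The treated group was stage 54 tadpoles kept in 10 nM triiodothyronine for 18 h (T3). The other groups were untreated animals at stage 54 (st54, premetamorphic), stage 61 (st61, the climax of metamorphosis) and stage 66 (st66, its end). Per the labels all tadpoles shared the same parents, and replicates came from different tadpoles. RNA was taken from the whole organ, so fewer cells of a type and less RNA per cell cannot be told apart in any value below.

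Uncoupling proteins belong to the SLC25 family of carriers in the inner mitochondrial membrane, which exchange metabolites, nucleotides and protons between the cytosol and the matrix. UCP1 lets protons return to the matrix without making ATP, and is known for producing heat in the brown fat of mammals, while in some fish it is known from the liver. UCP2 is found in many mammalian tissues, including immune cells, and has been described as a carrier of four-carbon metabolites, and UCP3 is known from mammalian skeletal muscle. Their roles in frog liver are not established here.

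ucp1 lies on chromosome 1, from 60473690 to 60480530 on the plus strand, with 7 exon blocks that sum to 2053 bases. ucp3 (chromosome 2, 174942699 to 174957131) and ucp2 (chromosome 2, 174969582 to 174978554) lie next to each other on the plus strand, 12450 bases apart, and each has 8 exon blocks, of 3563 bases in ucp3 and 1989 bases in ucp2. These are the positions in the deposited table, and they equal those of the 3 genes in the UCB_Xtro_10.0 annotation. ucp1 and ucp2 passed the filter on low counts and ucp3 did not.

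Total counts ranged from 7928459 to 39536147 per library, so that the floor of 3 counts was worth between 0.0759 and 0.378 CPM (counts per 1000000 counts of the library). The hepatocyte markers summed to at least 48877 CPM in every library, with transferrin (tf) the most abundant. The spread between libraries, as edgeR's biological coefficient of variation, came to 2.57% in T3, 33.7% in st54, 23.9% in st61 and 40.1% in st66. The T3 counts differed by somewhat more than counting error. Their mean chi-square per degree of freedom was 3.51 over 14265 genes, against 62.0 to 139 in the other groups. In T3, 22.6% of genes passed the 95% bound of counting error, against 67.0% to 85.9% in the other groups. Whether the T3 libraries came from a shared pool of RNA, or from 1 library sequenced more than once, was not tested. If they did, their SDs, n = 3 and every p-value against T3 would describe library preparation or sequencing and not tadpoles. The fit shares its spread over all libraries, so the low T3 spread also enters the p-values of comparisons without T3. Calls in every comparison were therefore also made with the T3 libraries summed to 1. thrb, the hormone-inducible thyroid hormone receptor gene, served as the check on the labels. It stood at 24.3 ± 0.345 CPM in T3 and 1.03 ± 0.551 CPM in st54 (SD, n = 3 each, on TMM-scaled libraries), a 22.2-fold difference with an adjusted p of 1.44e-05 in edgeR.

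ucp1 was abundant in the stage 54 livers, treated or not, and nearly absent at both later stages. The 3 T3 libraries held 117, 115 and 111 CPM (4618, 3637 and 3078 counts), and the 3 st54 libraries 62.0, 139 and 91.4 CPM (1446, 4077 and 1141 counts). At st61 there were 0.264, 0.190 and 0.215 CPM, from 5, 4 and 4 counts, and at st66 0.151, 0.126 and 0.470 CPM, from 3, 1 and 4 counts. No library of st61 or st66 came within a factor of 100 of any st54 library. Libraries of the same group agreed best in T3, where the highest was 1.05 times the lowest, against 2.24 times in st54.

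The means were 0.223 ± 0.0375 CPM in st61 and 97.4 ± 38.7 CPM in st54 (SD, n = 3 each), a log2 ratio of -8.77 with an SE of 0.36. Pooled over libraries, the ucp1 level was 461-fold lower in st61 than in st54, with a 95% counting interval of 269.6 to 867 (exact, for counting error only). In st66 the mean was 0.249 ± 0.192 CPM, a log2 ratio to st54 of -8.61 with an SE of 0.72, or 463-fold lower when pooled (235 to 1073). Among the 8702 genes with at least 10 CPM in st54, ucp1 had the second lowest fitted ratio in both comparisons. The share of all genes tested that were lower in every library was 20.6% in st61 against st54 and 11.1% in st66 against st54. ucp1 and ucp2 both belonged to that share in both comparisons, but they were chosen on these values and nothing is read from the count.

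Between the 2 later stages ucp1 could not be told apart at this depth. It had 8 counts in all st66 libraries together and 13 in all st61 libraries, and the pooled ratio was 0.996 with a counting interval of 0.358 to 2.59. 2 of the 3 st66 libraries were at or under the floor of 3 counts.

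After 18 h of hormone treatment ucp1 overlapped with its level in untreated livers of the same stage. The mean was 114 ± 2.79 CPM in T3 and 97.4 ± 38.7 CPM in st54, and all 3 T3 libraries lay inside the range of the st54 libraries. The log2 ratio was 0.23 with an SE of 0.33 on column sums, and it turned to -0.08 on TMM-scaled libraries, where the means were 94.0 ± 0.273 CPM in T3 and 99.0 ± 39.7 CPM in st54. Set against the natural climax, the pooled ucp1 level was 517-fold higher in T3 than in st61 (counting interval 302 to 971), although thrb stood at 24.3 ± 0.345 CPM in T3 and 19.5 ± 2.27 CPM in st61 and its difference did not pass the test (adjusted p = 0.328 in edgeR, and 0.0266 with these 2 groups alone). That comparison differs in stage as well as in treatment, and the length of hormone exposure is given for T3 (18 h) but not for st61. The labels give no T3 group at a later stage or for another time, so these differences cannot be told apart.

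**Figure D1:**
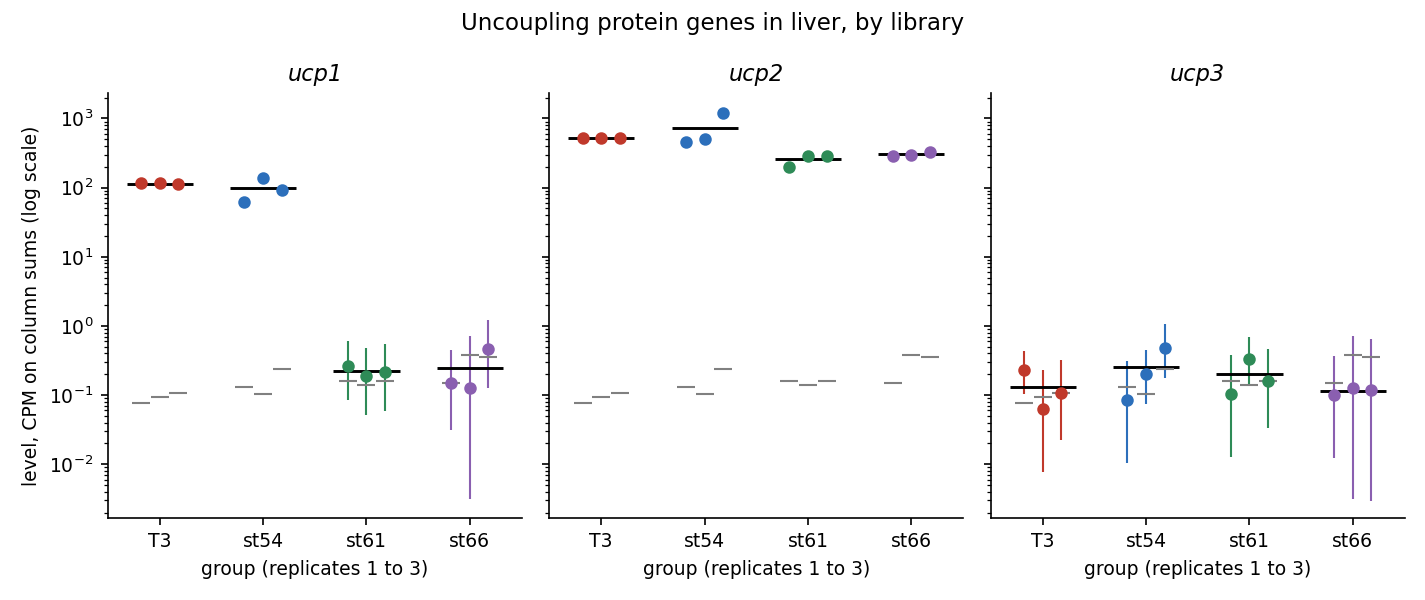
Level of ucp1, ucp2 and ucp3 in each library (CPM on column sums, log axis), with replicates 1 to 3 from left to right in T3, st54, st61 and st66. Points carry exact 95% counting intervals, black lines are group means and grey ticks mark the floor of 3 counts. ucp1 sits between 62.0 and 139 CPM in T3 and st54 and between 0.126 and 0.470 CPM in st61 and st66, ucp2 sits at 197 CPM or more everywhere, and ucp3 stays close to the floor.

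ucp2 was the most abundant of the 3 genes in every library and was lower at both later stages. It stood at 528, 514 and 515 CPM in T3, 463, 496 and 1207 CPM in st54, 197, 289.6 and 282 CPM in st61, and 283, 295 and 331 CPM in st66. Every st61 and st66 library was below every st54 library, and the T3 libraries lay inside the range of st54. A single library, st54 replicate 3, stood at more than 2 times the level of every other library.

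The means were 256 ± 51.4 CPM in st61 and 722 ± 420.2 CPM in st54, a log2 ratio of -1.49 with an SE of 0.51, and -0.90 without st54 replicate 3. At st66 the mean was 303 ± 24.8 CPM and the log2 ratio to st54 was -1.25 (SE 0.49), and -0.62 without st54 replicate 3 and st66 replicate 1. st66 and st61 overlapped, with a log2 ratio of 0.24 (SE 0.18). In T3 the mean was 519 ± 7.75 CPM, a log2 ratio to st54 of -0.48 (SE 0.49) that turned to 0.11 without st54 replicate 3. The scaling also matters here: on TMM-scaled libraries the highest T3 library, at 434 CPM, lay below the lowest st54 library, at 464 CPM. On column sums, 11.4% of all genes tested were lower in every T3 library than in every st54 library. That share was not counted on TMM-scaled libraries, so nothing is read from the separation of ucp2 there. T3 was above st61 in every library, by a log2 ratio of 1.02 (SE 0.17) on column sums and 0.68 on TMM-scaled libraries. With column sums, 52.7% of all genes tested were higher in every T3 library than in every st61 library, and the median gene had a log2 ratio of 0.35, against 0.0040 after TMM scaling.

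ucp2 is also known from macrophages in mammals. The myeloid markers, a list wider than macrophages with mpo the most abundant, were therefore read beside it. Their summed level was 1367 to 1440.3 CPM in T3, 938 to 1935 CPM in st54, 1107 to 1777 CPM in st61 and 1105 to 1685 CPM in st66. These ranges overlap, and st54 replicate 3, with the highest ucp2, had the lowest myeloid sum. Hepatocyte markers summed to 76309 to 84827 CPM in st61 and 61518 to 73121 CPM in st66. Their sum was 53556 to 58656 CPM in st54 and 48877 to 52987 CPM in T3. Of the 12 markers, 3 were called higher and 1 lower in st61 against st54 (edgeR, adjusted p under 0.05). The shares of all genes tested were 10.0% higher and 8.85% lower. Fibroblast markers, with col1a1 the most abundant, summed to 1353 to 2458 CPM in st61 and 761 to 1552 CPM in st66. Their sum was 230.2 to 520.4 CPM in st54 and 270.2 to 296 CPM in T3. Of these 8 markers, 6 were called higher than in st54 at each later stage (10.0% of all genes in st61, 8.23% in st66). In st66, 1 of the 8 had a negative log2 change. Endothelium markers summed to 1699 to 1771 CPM in T3, 601 to 1137 CPM in st54, 1225 to 2115 CPM in st61 and 274 to 888 CPM in st66, and lymphocyte markers never exceeded 126 CPM. No marker in the table was at 0 in all libraries, and the part of these cells in the levels of ucp1 and ucp2 was not tested.

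ucp3 was close to the limit of detection throughout. The T3 libraries had 9, 2 and 3 counts, the st54 libraries 2, 6 and 6, the st61 libraries 2, 7 and 3, and the st66 libraries 2, 1 and 1, or 44 in all 12 libraries together. 8 of the 12 libraries were at or under the floor of 3 counts, so no ratio is given. Pooled levels were 0.141 CPM in T3 (counting interval 0.0774 to 0.237), 0.215 CPM in st54 (0.117 to 0.360), 0.205 CPM in st61 (0.106 to 0.357) and 0.110 CPM in st66 (0.0301 to 0.283), and these intervals overlap. Skeletal muscle markers, of interest because mammalian UCP3 is a muscle protein, were present at 46.6 to 51.5 CPM summed in T3, 22.9 to 73.3 CPM in st54, 14.8 to 18.4 CPM in st61 and 30.4 to 542 CPM in st66. The library with 542 CPM, st66 replicate 3, had 1 ucp3 count.

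Levels of different genes are comparable only per length. Divided by exon length, ucp1 averaged 55.6 CPM per kb in T3, 47.4 in st54, 0.108 in st61 and 0.121 in st66, and ucp2 averaged 261 CPM per kb in T3, 363 in st54, 129 in st61 and 152 in st66. ucp2 was thus the larger in every library. ucp1 made up 17.6% of the summed level per length of the 3 genes in T3 (17.3% to 17.8% by library) and 13.2% in st54 (6.84% to 21.3%). Its share was 0.0888% in st61 and 0.0769% in st66, where ucp2 made up 99.9%. The order of the 3 genes was ucp2, ucp1, ucp3 in the group means of all 4 groups, but in st61 and st66 ucp1 and ucp3 were both within a few counts of the floor and their order there is not resolved.

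**Figure D2:**
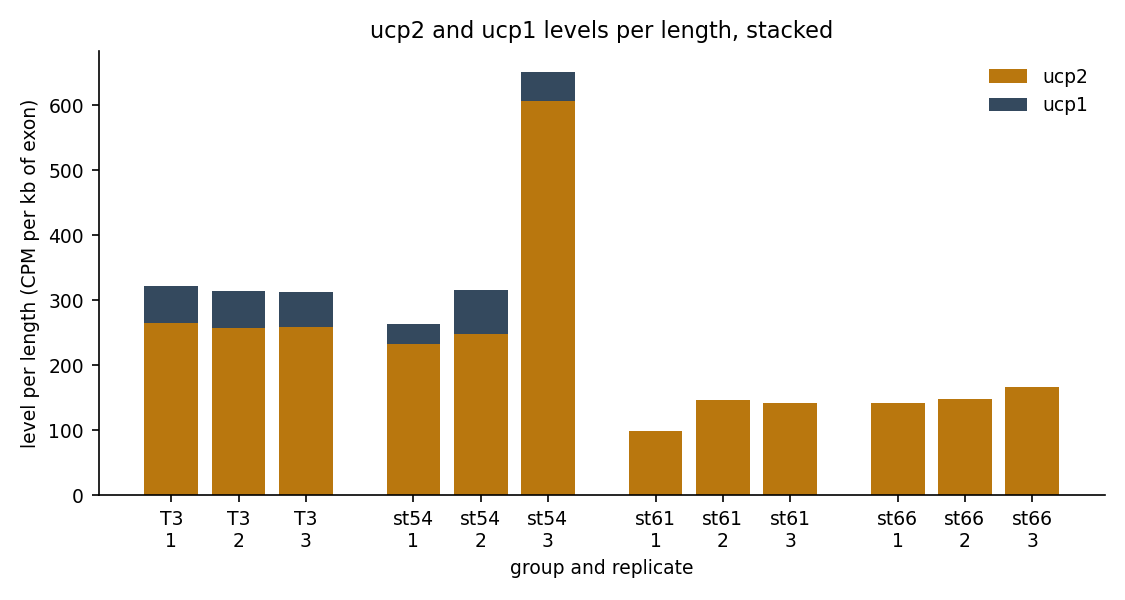
Level per length of ucp2 and ucp1 (CPM per kb of exon), stacked, in each library of T3, st54, st61 and st66. ucp3 is left out because it never exceeded 0.135 CPM per kb. The ucp1 part is visible in the T3 and st54 bars, and the bars of st61 and st66 are almost all ucp2. The bar of st54 replicate 3 is the tallest, at 651 CPM per kb for the 3 genes.

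Beside the rest of the mitochondrial carrier family, ucp2 ranked high and ucp1 changed rank. Among 45 carriers (the 3 genes and 42 with symbols beginning slc25a), ucp2 was the fourth most abundant per length in T3, the third in st54 and the fourth in st61 and st66. ucp1 ranked 9 in T3, 10 in st54 and 42 in both st61 and st66, and ucp3 43 or 44 in every group. Of the 26529 genes in the table, ucp2 ranked 387 per length in T3, 310 in st54, 685 in st61 and 586 in st66.

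The other carriers moved in both directions at the climax. Of 40 slc25a genes tested in st61 against st54, 7 were higher and 8 lower at an adjusted p under 0.05 (edgeR, as in all tests below), where 10.0% of all genes tested were called higher and 8.85% lower. Their median log2 change was -0.25, against -0.03 over all genes. Without st54 replicate 3 and st66 replicate 1 the counts were 9 higher and 15 lower. slc25a48 stood at 165 ± 17.5 CPM in st61 and 2.21 ± 2.06 CPM in st54 (80.6-fold, adjusted p = 3.67e-05), on TMM-scaled libraries as are all levels of single genes other than the uncoupling proteins. Summed levels of marker lists and of the respiratory chain are on column sums. slc25a47, a carrier known from mammalian liver, rose 4.17-fold (adjusted p = 0.000111). slc25a10, the dicarboxylate carrier, fell to 51.7 ± 19.1 CPM in st61, against 270.3 ± 117 CPM in st54 (5.23-fold, adjusted p = 0.000632). slc25a25, a calcium-regulated ATP-Mg carrier named here because it had the lowest ratio of the 40, was 10.4-fold lower (adjusted p = 0.00364).

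Among 5 tested near relatives (other uncoupling-type and dicarboxylate carriers), slc25a10 and slc25a34 fell and slc25a30 rose at st61. slc25a34 stood at 8.60 ± 2.12 CPM in st61 and 25.2 ± 1.96 CPM in st54 (2.93-fold lower, adjusted p = 0.000462), and slc25a30 at 115 ± 49.9 CPM in st61 and 28.9 ± 10.3 CPM in st54 (3.98-fold higher, adjusted p = 0.00821). slc25a11, the oxoglutarate carrier, and slc25a27, named UCP4 in mammals, did not pass (adjusted p of 0.143 and 0.333), although slc25a11 did without st66 replicate 1 (adjusted p = 0.0386). slc25a5, the abundant ADP/ATP carrier, stood at 1285 ± 205 CPM in st61 and 2188 ± 456 CPM in st54 and did not pass (adjusted p = 0.170, and as low as 0.00704 where st66 replicate 1 was left out), nor did the scarce slc25a4 (adjusted p = 0.344).

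In st66 against st54, 4 of the 40 carriers were higher and 5 lower, where 8.23% of all genes tested were called higher and 5.48% lower. Without st66 replicate 1, 9 were higher. slc25a48 averaged 57.7 ± 22.1 CPM in st66 (28.0-fold higher than in st54, with an adjusted p of 0.000221), slc25a10 at 56.6 ± 14.6 CPM (4.76-fold lower, adjusted p = 0.00140) and slc25a34 at 6.73 ± 1.52 CPM (3.80-fold lower, adjusted p = 0.000221). slc25a30 stood at 38.1 ± 21.4 CPM in st66 and did not pass the test against st54 (adjusted p = 0.582). In st66 against st61, 4 carriers were higher and 2 lower, where 5.75% of all genes were called higher and 4.28% lower. Without st66 replicate 1 the counts were 10 and 5, with the replicate block 1 was higher, and with the T3 libraries summed both were 0 (7 and 5 at an unadjusted p under 0.05 in that edgeR fit, and 6 and 4 by DESeq2 on the 12 libraries). In the fit to all 12 libraries slc25a30 was 3.00-fold lower (adjusted p = 0.0396, and up to 0.139 in the alternatives, 10 of which ended the call).

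In T3 against st54, 2 of 40 were higher and 2 lower, where 9.47% of all genes tested were called higher and 7.55% lower. The counts were 5 and 5 without st66 replicate 1, and 5 were lower without st54 replicate 3. With the T3 libraries summed 1 was higher and 0 lower (2 lower at an unadjusted p under 0.05 in that edgeR fit, and 3 by DESeq2 on the 12 libraries). slc25a23, a calcium-regulated ATP-Mg carrier, stood at 20.2 ± 0.305 CPM in T3 and 4.17 ± 0.337 CPM in st54 (4.85-fold, adjusted p = 6.43e-05), and this call held in every alternative tried. slc25a34 was 2.30-fold lower (adjusted p = 0.00470), a call that ended when the T3 libraries were summed to 1. slc25a10, which was low at both later stages, stood at 190.1 ± 4.86 CPM in T3 and 270.3 ± 117 CPM in st54 and did not pass (adjusted p = 0.288). slc25a48, although under 10 CPM in both groups, was 3.65-fold higher in T3 than in st54 (7.49 ± 0.259 CPM in T3, adjusted p = 0.0296). That call ended with the T3 libraries summed. In T3 against st61, 9 carriers were higher and 5 lower, where 16.6% of all genes were called higher and 16.6% lower. Without st66 replicate 1, 9 were lower, and with the T3 libraries summed 0 were higher (6 at an unadjusted p under 0.05 in that edgeR fit, and 10 by DESeq2 on the 12 libraries) and 2 lower. slc25a10 was 3.68-fold higher in T3 than in st61 (adjusted p = 0.00179), and slc25a48 22.1-fold lower (adjusted p = 0.000154). The first of these calls ended with the T3 libraries summed.

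**Figure D3:**
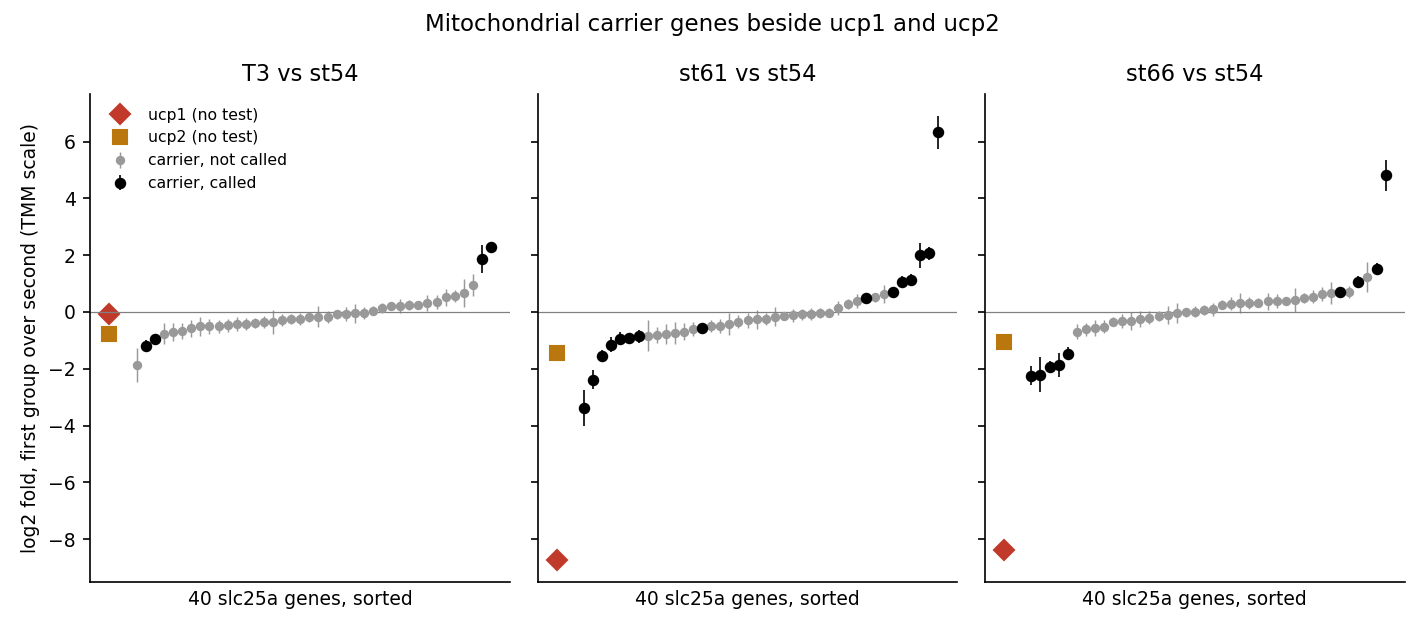
Log2 fold of 40 slc25a carriers (points with SE, sorted; black where the adjusted p was under 0.05) in T3 against st54, st61 against st54 and st66 against st54, on TMM-scaled libraries. The diamond is ucp1 and the square ucp2, placed at the left without a test because they were chosen on these values. ucp1 lies below every carrier at both later stages, and in T3 against st54 it lies close to 0, at -0.08.

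The genes whose pattern over the 12 libraries was most like that of ucp1 were sought among 9011 genes with at least 10 CPM in some group. Likeness was the mean absolute difference between centred log2 CPM profiles, so that 0 is an identical pattern, and the median over candidates was 4.1. The closest 4 were hbe1 (0.73), a globin named for the mammalian embryonic epsilon chain, slc38a4 (0.89), an amino acid transporter, ptger3 (0.92), a prostaglandin E2 receptor, and cela2a (1.2), a pancreatic elastase. hbe1 averaged 31.8 CPM in T3, 39.6 in st54, 0.351 in st61 and 0.165 in st66, and slc38a4 111 CPM in T3, 228 in st54, 2.77 in st61 and 0.878 in st66. Like ucp1, all 4 were high in T3 and st54 and low in st61 and st66, which follows from how they were chosen. Globins and elastases lie in families of similar copies, so the values of hbe1 and cela2a are uncertain.

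Summed markers of pancreas and blood overlapped between st61 and st54, but single pancreas markers moved both ways. Of 9 exocrine pancreas markers tested, 4 were higher and 2 lower in st61 against st54, and 4 were higher and 4 lower in st66 against st54. The shares of all genes tested were 10.0% higher and 8.85% lower in st61, and 8.23% and 5.48% in st66. Exocrine pancreas markers summed to 1301 to 1310.4 CPM in T3, 275 to 1979.6 CPM in st54, 222 to 2314 CPM in st61 and 128 to 555 CPM in st66. Erythroid markers other than globins summed to 2027 to 2099.6 CPM in T3, 1542 to 3256 CPM in st54, 1946 to 2642 CPM in st61 and 1869 to 3089 CPM in st66.

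The genes most like ucp2 were parts of the respiratory chain and ATP synthase. The closest 4 were ndufs3 (0.14) and ndufb8 (0.18), subunits of complex I, atp5pf (0.14), a subunit of ATP synthase, and cox5b.1 (0.18), a subunit of cytochrome c oxidase, where the median over candidates was 0.57. Over whole lists, the median difference from the ucp2 profile was 0.30 for 59 respiratory chain genes and 0.30 for 16 ATP synthase genes, against 0.61 for all genes tested. The lists closest after these were oxidant defence (0.50) and fatty acid supply (0.52). These profiles share libraries and depth, and the likeness is a description. The summed respiratory chain level was 9221 to 9412 CPM in T3, 8557 to 13744 CPM in st54, 5272 to 6381 CPM in st61 and 6683 to 7202 CPM in st66, and its highest library was st54 replicate 3, the library with the highest ucp2. Relative to that sum, ucp2 stood at 5.47% to 5.72% in T3, 5.35% to 8.78% in st54, 3.39% to 5.49% in st61 and 3.99% to 4.59% in st66, so that st61 and st54 overlapped on this measure while every st66 library lay below every st54 library. The sums themselves are on column sums, and their overlap between groups depends on the scaling. TMM factors were 1.19 to 1.25 in T3, 0.977 to 0.997 in st54 and 0.747 to 1.14 in st66. After TMM scaling, 52 of the 59 genes had a negative log2 change in T3 against st54 (median -0.44). In st66 against st54 54 did (median -0.34).

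**Figure D4:**
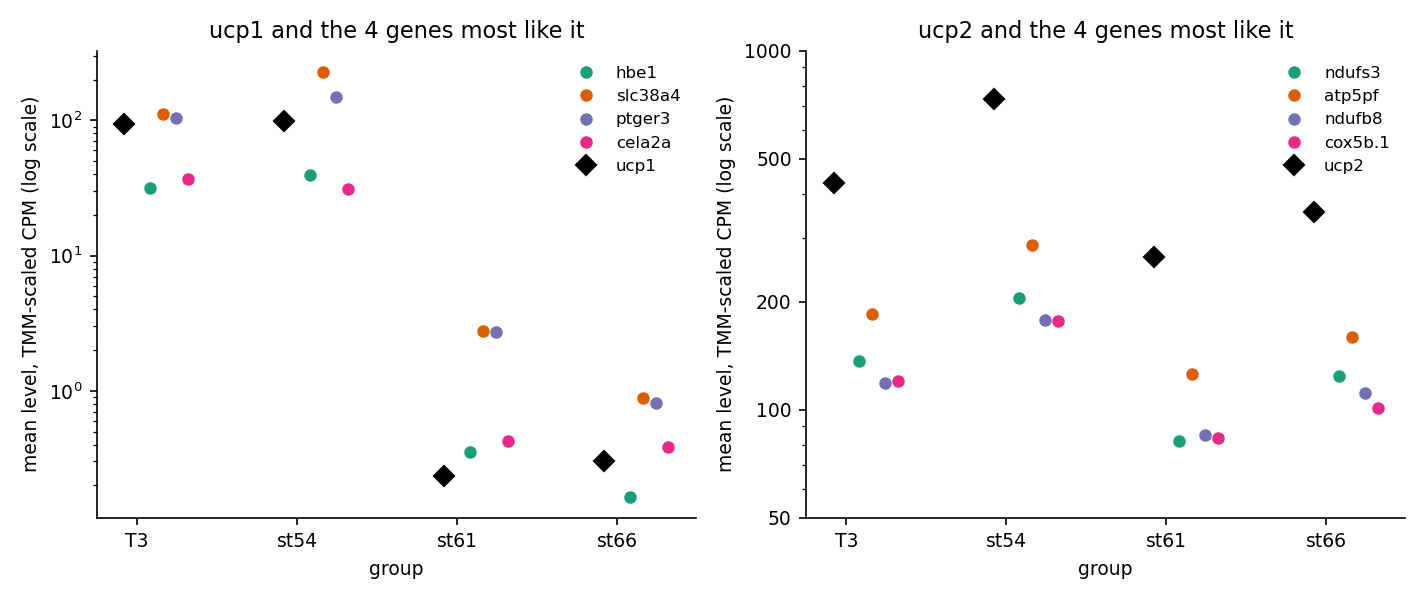
Group means (TMM-scaled CPM, log axes) of ucp1 and ucp2, as diamonds, and of the 4 genes most like each over the 12 libraries, as circles. In the ucp1 panel all genes stand above 30 CPM in T3 and st54 and below 3 CPM in st61 and st66. In the ucp2 panel the range is narrow, and every gene is highest in st54 and lowest in st61.

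Genes of oxidative phosphorylation were lower at the climax. The share of all genes tested called lower was 8.85% in st61, 5.48% in st66 and 7.55% in T3, each against st54. Of 59 respiratory chain genes 26 fell in st61 against st54, with a median log2 change of -0.74, and of 16 ATP synthase genes 10 fell, with a median of -0.86. None rose by edgeR (1 and 0 at an unadjusted p under 0.05, and 0 in both lists by DESeq2). cox5b.1 stood at 83.3 ± 9.39 CPM in st61 and 177 ± 47.7 CPM in st54 (2.12-fold lower, adjusted p = 0.00297), uqcrc2, a subunit of complex III, was 1.85-fold lower (adjusted p = 0.00679) and atp5f1c, the gamma subunit of ATP synthase, 2.39-fold lower (adjusted p = 0.00312). The respiratory chain count was 18 without st54 replicate 3, 42 without st66 replicate 1 and 6 with the T3 libraries summed, and the ATP synthase count 5 with the T3 libraries summed. At st66, 3 respiratory chain genes were lower than in st54 and 0 of 16 ATP synthase genes (6 at an unadjusted p under 0.05 in edgeR, and 2 by DESeq2). The respiratory chain count was 6 without st66 replicate 1. In T3 against st54, 2 respiratory chain and 3 ATP synthase genes were lower. These counts were 1 and 0 without st54 replicate 3, 20 and 11 without st66 replicate 1, and 0 in both lists with the T3 libraries summed (0 also at an unadjusted p under 0.05 in that edgeR fit, and 8 and 10 by DESeq2 on the 12 libraries). atp5f1b, the beta subunit and the most abundant of the list, stood at 1969 ± 561 CPM in st66 and 2332 ± 475 CPM in st54 (adjusted p = 0.582).

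Fatty acids activate mammalian UCP1. In the 3 comparisons with st54, 8.23% to 10.0% of all genes tested were called higher and 5.48% to 8.85% lower. Genes that bring fatty acids to mitochondria and burn them formed the next list. Of 27 tested, 10 fell and 2 rose in st61 against st54, with a median log2 change of -0.61, and 6 fell with the T3 libraries summed. pdk4, a kinase that restrains pyruvate oxidation, stood at 42.6 ± 12.7 CPM in st61 and 273 ± 62.5 CPM in st54 (6.41-fold lower, adjusted p = 3.69e-05), and fabp1, a fatty acid binding protein, was 6.85-fold lower (adjusted p = 0.00255). slc27a2, which takes up and activates very long fatty acids, stood at 779 ± 158 CPM in st61 and 2.16 ± 2.96 CPM in st54 (401-fold higher, adjusted p = 0.000111). It was also higher than in st54 in st66 (88.6-fold, adjusted p = 0.000676) and in T3 (19.0-fold, adjusted p = 0.00665). At st66, 2 were higher and 2 lower than in st54, with pdk4 2.43-fold lower (adjusted p = 0.00431), and 4 were lower without st54 replicate 3. In T3 against st54, 2 rose and 5 fell, among them acsl4, an acyl-CoA synthetase, 3.51-fold higher (adjusted p = 0.00539), and crat, carnitine acetyltransferase, 2.12-fold lower (adjusted p = 0.0100), and no call of that list remained with the T3 libraries summed (2 higher and 3 lower at an unadjusted p under 0.05 in that fit, and 2 and 6 by DESeq2 on the 12 libraries).

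Among 22 tested regulators of mitochondrial and uncoupling genes, 2 rose and 2 fell in st61 against st54 (10.0% and 8.85% of all genes tested). In st66, 1 rose and 6 fell (8.23% and 5.48% of all genes tested). In T3, 3 rose and 3 fell (9.47% and 7.55% of all genes tested). Summing the T3 libraries left 1 that rose in each comparison and 2 that fell in st66. thrb was the first by adjusted p in all 3 comparisons. ppargc1a, a coactivator that drives mammalian Ucp1, stood at 11.7 ± 10.4 CPM in st66 and 60.0 ± 19.9 CPM in st54 (4.87-fold lower, adjusted p = 0.0196). It was not among the regulators called in st61 against st54. In T3 it stood at 9.63 ± 0.0605 CPM, 6.23-fold below st54 (adjusted p = 0.0113). 5 alternatives ended the first of these calls (adjusted p up to 0.0849) and 4 the second (up to 0.356), among them leaving out st54 replicate 1, st66 replicate 2 or st66 replicate 3 for the first and any 1 T3 library for the second. Its relative ppargc1b was 2.36-fold lower in st61 (adjusted p = 0.0292) and 2.87-fold lower in st66 (adjusted p = 0.0167). 6 alternatives ended the st61 call (adjusted p up to 0.0929), among them leaving out st54 replicate 2, st54 replicate 3, st61 replicate 1 or st61 replicate 2. 4 ended the st66 call (up to 0.0643), among them leaving out st54 replicate 2, st66 replicate 2 or st66 replicate 3. rxrg, a retinoid X receptor, was 2.94-fold lower in T3 (adjusted p = 0.00156), a call that ended with the T3 libraries summed.

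Of 9 tested genes linked to heat production in mammals, 2 rose and 1 fell in st61 against st54, 3 rose and 1 fell in st66, and 4 rose and 2 fell in T3, and summing the T3 libraries left 1 that rose in T3. Shares called higher over all genes tested were 10.0% in st61, 8.23% in st66 and 9.47% in T3. Shares called lower were 8.85%, 5.48% and 7.55% in the same order. dio2, which makes the active hormone and serves brown fat in mammals, rose 11.6-fold in st61 (21.4 ± 5.48 CPM in st61 and 1.86 ± 0.407 CPM in st54, adjusted p = 7.27e-06). Its means were also above st54 in T3, at 6.74 ± 0.539 CPM, and in st66, at 7.65 ± 1.29 CPM. cidea, a lipid droplet protein used as a brown fat marker in mice, stood at 10.3 ± 0.332 CPM in T3 and 1.84 ± 0.163 CPM in st54 (5.58-fold higher, adjusted p = 0.000385). gpd1, of the glycerol phosphate shuttle, fell 2.34-fold in st61 (adjusted p = 0.00158). atp2a2, a calcium pump, rose 2.82-fold in T3 (adjusted p = 0.0227), and gk, glycerol kinase, fell 2.02-fold (adjusted p = 0.0338), both calls that ended in several alternatives. Adipocyte markers, a list that also holds cidea, summed to 249.8 to 263 CPM in T3, 182 to 465 CPM in st54, 153 to 272 CPM in st61 and 176 to 271 CPM in st66, with lpl the most abundant.

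Mammalian UCP2 has been linked to mitochondrial oxidant defence. Of 15 genes of that kind, 3 rose and 2 fell in st61 against st54, 2 rose in st66, and 1 rose and 2 fell in T3. Over all genes tested, between 8.23% and 10.0% were called higher and between 5.48% and 8.85% lower in these comparisons. Without st66 replicate 1, 4 fell in st61, 5 rose in st66 and 6 fell in T3. The lower calls of this list in st61 and in T3 ended with the T3 libraries summed. msrb2, a methionine sulfoxide reductase of mitochondria, was higher in all 3 comparisons: 4.19-fold in T3 (38.5 ± 0.294 CPM in T3 and 9.15 ± 1.84 CPM in st54, adjusted p = 0.000613), 4.35-fold in st61 (adjusted p = 0.000166) and 4.65-fold in st66 (adjusted p = 0.000202). nnt, which makes matrix NADPH, rose 1.84-fold in st61 (adjusted p = 0.00338). prdx5, a peroxiredoxin, was 2.15-fold lower in T3 (adjusted p = 0.0249) and 2.26-fold lower in st61 (adjusted p = 0.0144), and both calls ended with the T3 libraries summed. The 3 comparisons share the st54 libraries.

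In four-carbon and glutamine metabolism, the substrates assigned to mammalian UCP2, 2 of 15 genes rose and 4 fell in st61 against st54, 4 fell in st66, and 1 rose and 6 fell in T3. Without st54 replicate 3, 1 rose in st61. Calls over all genes tested came to 10.0% higher and 8.85% lower in st61. They came to 8.23% and 5.48% in st66, and 9.47% and 7.55% in T3. glud1, glutamate dehydrogenase, fell in all 3: to 391 ± 6.01 CPM in T3 (2.23-fold, adjusted p = 0.00796), to 319 ± 69.8 CPM in st61 (2.73-fold, adjusted p = 0.00116) and to 250.4 ± 55.8 CPM in st66 (3.48-fold, adjusted p = 0.000483), against 872 ± 137 CPM in st54. pck1, which makes phosphoenolpyruvate from oxaloacetate, stood at 83.2 ± 122 CPM in st61 and 3434 ± 552 CPM in st54 (41.3-fold lower, adjusted p = 0.00956). got1, an aspartate aminotransferase, was 2.03-fold lower in T3 (adjusted p = 0.00486), and gls2, a glutaminase, 4.01-fold lower (adjusted p = 0.0101). In st61 the mean of gls2 was instead above st54, at 71.3 ± 26.9 CPM in st61 and 28.4 ± 14.4 CPM in st54. The T3 calls of this list, among them those of got1, gls2 and glud1, ended with the T3 libraries summed, as did its higher calls in st61.

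**Figure D5:**
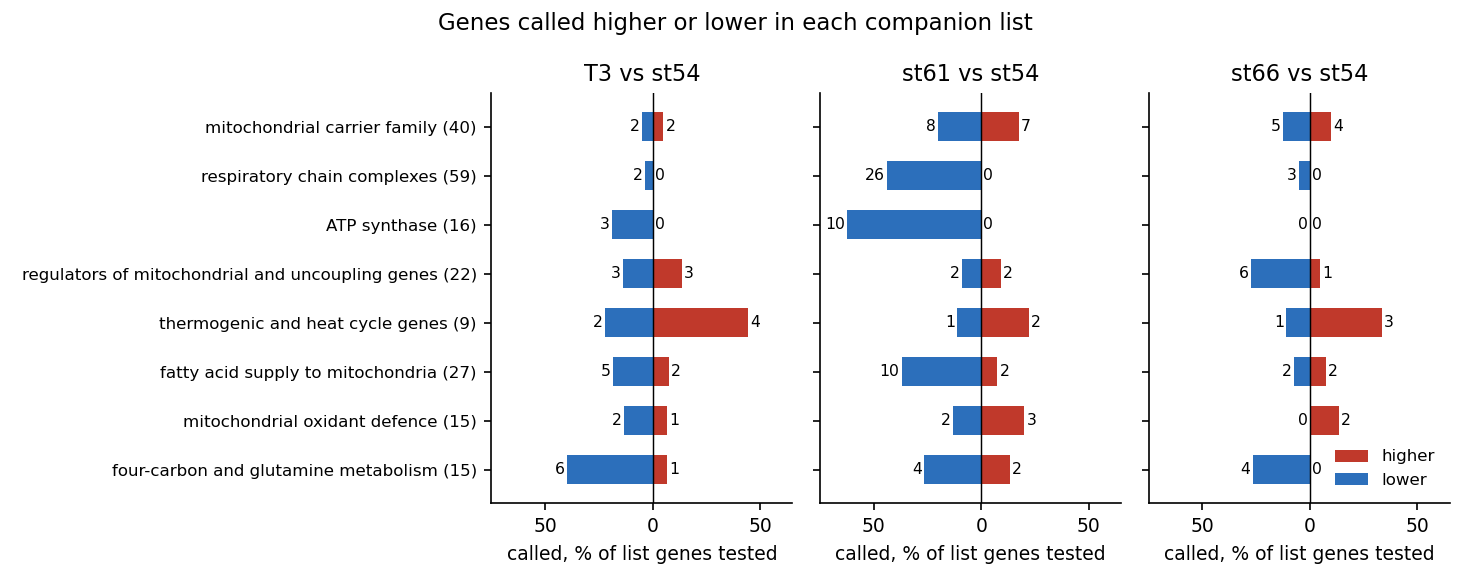
Share of the genes tested in each of 8 lists that were called higher (right, red) or lower (left, blue) at an adjusted p under 0.05 in T3 against st54, st61 against st54 and st66 against st54, with the counts beside the bars and the number tested in brackets. In st61 the bars of 10 of 16 ATP synthase genes and 26 of 59 respiratory chain genes point to the lower side. In T3 the thermogenic bars are 4 of 9 genes on the higher side and 2 of 9 on the lower side. Over all genes tested, 9.47% were called higher and 7.55% lower in T3, 10.0% and 8.85% in st61, and 8.23% and 5.48% in st66.

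Of the 4 tested genes around ucp1, 1 was lower at the climax, where 8.85% of all genes tested were called lower. Its nearest neighbour, elmod2, begins 1100 bases after it on the opposite strand, and stood at 8.32 ± 1.11 CPM in st61 and 8.94 ± 2.46 CPM in st54 (adjusted p = 0.790). tbc1d9, which ends 14073 bases before ucp1, was at 3.20 ± 0.0679 CPM in st61 and 3.44 ± 0.900 CPM in st54 (adjusted p = 0.868). Of the 4 tested neighbours, mgat4a, an enzyme that branches N-glycans, fell: 1.73-fold in st61 (adjusted p = 0.00663) and 2.13-fold in st66 (adjusted p = 0.00168). The 2 others of the 6 nearest genes, LOC116408302 and clgn, had 6 and 4 counts over the 12 libraries. In T3 against st54, where 9.47% of all genes tested were called higher, all 4 tested neighbours of ucp1 were. elmod2 was 2.31-fold higher (20.8 ± 0.766 CPM in T3 and 8.94 ± 2.46 CPM in st54, adjusted p = 0.00625). The others were higher by 1.99-fold in tbc1d9 (adjusted p = 0.0289), 1.81-fold in rnf150 (adjusted p = 0.0236) and 1.59-fold in mgat4a (adjusted p = 0.0204). These 4 calls ended with the T3 libraries summed, and those of the last 3 also when any 1 T3 library was left out.

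Of the 4 tested neighbours of ucp2 and ucp3, ppme1, c2cd3, znf16 and pold3 had adjusted p of 0.285, 0.328, 0.325 and 0.647 in st61 against st54. Without st54 replicate 3 and st66 replicate 1, znf16 was called lower (adjusted p = 0.0179) and ppme1 higher (adjusted p = 0.0250). pold3, a subunit of DNA polymerase delta, was higher in st66, at 47.8 ± 8.04 CPM in st66 and 27.7 ± 3.11 CPM in st54 (1.72-fold, adjusted p = 0.00561, and 0.141 when these 2 groups alone were fitted). In T3 against st54, znf16 was 2.54-fold lower (adjusted p = 0.0183) and pold3 1.44-fold lower (adjusted p = 0.0359), and both calls ended when any 1 T3 library was left out. dnajb13, which begins 1809 bases after ucp2 on the opposite strand, had 86 counts over the 12 libraries, and p4ha3, the third gene before ucp3, had 82.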

How the data were processed

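RNA-seq of 12 liver libraries was deposited by the authors as raw counts, 1 column a library, and these counts entered every step unchanged. The submitters' processing notes name cutadapt 3.4 and STAR 2.7.8a. Build, annotation version, strand setting and handling of marked duplicates were not given in the sources used here. 2 genes on broken lines were left out, and 26288 genes (99.1%) had the start and end of the UCB_Xtro_10.0 annotation.

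Levels of ucp1, ucp2 and ucp3 are CPM on column sums, and their log2 ratios of group means carry a delta-method SE. Summed levels of gene lists are also on column sums, so their comparison between groups depends on the scaling. Counting intervals (95%) are exact, Poisson for levels and binomial (Clopper-Pearson) for ratios of pooled counts. They describe counting error alone and leave out the spread between libraries. PCR copies of a molecule could not be told apart and are not allowed for either. All genes went through edgeR 4.0.16 under R 4.3.3 with limma 3.58.1: TMM factors (0.747 to 1.25), filterByExpr, and a robust quasi-likelihood fit of 4 group means to all 12 libraries (8 residual degrees of freedom). It tested 15102 genes, with calls at an adjusted p (Benjamini-Hochberg, over all of them) under 0.05. ucp1 and ucp2 were among these genes, but only their fitted ratios are used and no test of them is read. On column sums the median gene had a log2 ratio of 0.25 in T3 against st54, and of -0.047 after TMM scaling. The p-values measure the spread between these samples. That spread is shared over the 4 groups, so the closely agreeing T3 libraries enter every comparison.

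The 3 genes, the 10 companion lists, the marker lists and the alternatives were chosen with earlier results of these data known. Named genes are up to 4 called genes of each list by adjusted p with at least 10 CPM in the higher group (some are left out), all tested members of the 2 carrier lists closest to the uncoupling proteins, the 4 genes most like ucp1 and ucp2, the 3 nearest genes on each side, and thrb. Likeness used log2 CPM with a prior count of 2. Comparisons with st54 share its 3 libraries. Alternatives were DESeq2 1.42.0, RLE and upper-quartile factors, no low-count filter, only the 2 groups compared, a replicate block, T3 libraries summed, and each library left out. Promoter and protein sequences were not used here.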

Additional observations from a re-analysis of the deposited data

How the results depend on the processing

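Every log2 ratio of ucp1 and ucp2 that left the groups apart kept its sign in the alternatives run. With a library left out (or both st54 replicate 3 and st66 replicate 1, a setting chosen after seeing the data) the ratios ranged, for ucp1, from -9.01 to -8.43 in st61 against st54, -9.45 to -8.27 in st66 against st54, -0.68 to 0.48 in st66 against st61, -0.01 to 0.57 in T3 against st54 and 8.90 to 9.14 in T3 against st61. For ucp2 they ranged from -1.73 to -0.90, -1.49 to -0.62, 0.08 to 0.34, -0.71 to 0.11 and 0.86 to 1.11 in the same order. In T3 against st61 other scalings lowered both: ucp1 to 8.65 (TMM), 8.62 (RLE) and 8.58 (upper quartile), 8.63 in edgeR, 8.64 in DESeq2 and 8.65 with the replicate block, and ucp2 to 0.68 (TMM), 0.65 (RLE) and 0.61 (upper quartile), 0.68 in edgeR and 0.65 in DESeq2. ucp3 has no ratio and no alternatives.

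Counts of called genes moved more, and the cause was not tested. Higher and lower calls with 1 library left out ranged from 1062 to 2193 and 658 to 2238 in st61 against st54, 712 to 2333 and 557 to 1899 in st66 against st54, 278 to 2478 and 308 to 2084 in st66 against st61, 537 to 2550 and 205 to 2534 in T3 against st54, and 1582 to 3540 and 1521 to 3452 in T3 against st61, and each highest value came without st66 replicate 1. Without both st54 replicate 3 and st66 replicate 1 the higher and lower counts were 3357 and 3282, 3236 and 2730, 3318 and 3085, 3873 and 3823, and 4408 and 4321 in the same order. With the T3 libraries summed the higher and lower counts were 1010 and 649 in st61 against st54, 591 and 477 in st66 against st54, 257 and 231 in st66 against st61, 62 and 0 in T3 against st54 (544 lower at an unadjusted p under 0.05 in that edgeR fit, 1936 by DESeq2 on the 12 libraries), and 376 and 243 in T3 against st61. With only the 2 groups compared they were 296 and 271 in st66 against st54, 181 and 170 in st66 against st61, 2412 and 2339 in T3 against st54, and 4569 and 4451 in T3 against st61. DESeq2 called 1251 lower in st66 against st54, and 1344 higher and 1196 lower in st66 against st61.

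Same-numbered libraries did not deviate together (3 of 12 correlated best with their own number), so the numbers were not taken as pairs. The replicate block left 696 genes lower in T3 against st54, against 1140 without it. Depth limits ucp1 in st61 and st66 and ucp3 everywhere to a few counts a library.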
